A study of Mus musculus with 6 samples.

Results

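The genes described here encode the enzymes of phase II conjugation in liver, chosen by symbol as the protein-coding Ugt1, Ugt2 and Ugt3, Sult1 to Sult6, and Gsta, Gstk, Gstm, Gsto, Gstp, Gstt and Gstz genes, with pseudogenes left out. There were 64 such genes among the 56691 genes of the table, namely 21 Ugt, 21 Sult and 22 Gst genes. Poly(A) RNA was sequenced from livers of wild-type female C57BL/6J mice in 6 libraries. Mice of the PF group (n = 3) ate a diet rich in fructose, the HFrD, from part way through pregnancy. Those of the PC group (n = 3) were pregnant on normal chow (NC). Both groups were wild type and pregnant, so no library came from a mouse that was not pregnant, and an effect of pregnancy itself cannot be read from them. The study used these libraries to ask how hepatic gene expression differs when HFrD is added to pregnancy.

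Phase II enzymes attach a polar group to a drug, hormone, bile acid or pigment so that the product can leave the cell and be excreted. UDP-glucuronosyltransferases (Ugt) sit in the endoplasmic reticulum and transfer glucuronic acid from UDP-glucuronate. Cytosolic sulfotransferases (Sult) transfer a sulfonate group from the donor PAPS, and glutathione S-transferases (Gst) join glutathione to electrophiles, including products of lipid peroxidation. Hepatocytes carry most of these enzymes in the liver, and several of the mouse genes are known to differ between the sexes and with growth hormone, bile acid and xenobiotic signals.

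The libraries held between 16119145 and 19676361 counts, and the 64 genes took 0.916%, 0.604% and 0.752% of them in PF1, PF2 and PF3, against 0.884%, 0.871% and 0.837% in PC1, PC2 and PC3. Alb alone accounted for 7.97%, 15.8% and 7.56% of PF1, PF2 and PF3, against 18.1% to 19.9% of the PC libraries. Levels are therefore given as FPKM scaled by TMM factors, which set the bulk of genes level between libraries and divide by the exonic length. The choice matters here. The median log2 fold change over all 10756 tested genes was 0.0188 with TMM factors and 0.388 with library totals only.

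Of the 64 genes, 47 averaged at least 1 FPKM across all libraries and were tested, 14 Ugt, 14 Sult and 19 Gst genes. The other 17 lay below that level. Among them, 7 had under 10 counts in all 6 libraries together, and 4 of these 7 (Sult1c1, Sult6b2, Ugt2a1 and Ugt2a2) had 0. Of the tested genes, 3 reached 1 FPKM only through PF (Sult2a3, Sult2a5 and Sult2a7) and 1 only through PC (Gstp2). The highest mean levels over the 6 libraries belonged to Gstm1 (607 FPKM), Sult2a1 (443 FPKM), Sult1a1 (303 FPKM), Sult2a2 (292 FPKM) and Ugt2b36 (275 FPKM).

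The conjugating genes as a whole stood lower in PF than in PC relative to other genes. The summed level of all 64 genes was 3705, 3043 and 2990 FPKM in PF1, PF2 and PF3, against 5455, 4890 and 4941 FPKM in PC1, PC2 and PC3. No PF library reached the lowest PC library. On FPKM as deposited this sum overlapped, at 4562, 2995 and 3604 FPKM in PF1, PF2 and PF3, against 4388 to 4634 FPKM in PC. The Sult sum averaged 1059 ± 132 FPKM in PF and 2147 ± 598 FPKM in PC (SD), a log2 ratio of −1.02, and the groups did not overlap. The Ugt sum averaged 772 ± 94.5 FPKM in PF and 1098 ± 126 FPKM in PC, a log2 ratio of −0.51, again without overlap. The Gst sum averaged 1416 ± 315 FPKM in PF and 1851 ± 478 FPKM in PC, and here the groups overlapped. On FPKM as deposited, without TMM factors, these 3 log2 ratios kept their sign but were −0.64 for Sult, −0.12 for Ugt and −0.0086 for Gst, and all 3 sums overlapped between the groups. Sums over genes were not tested.

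**Figure D1:**
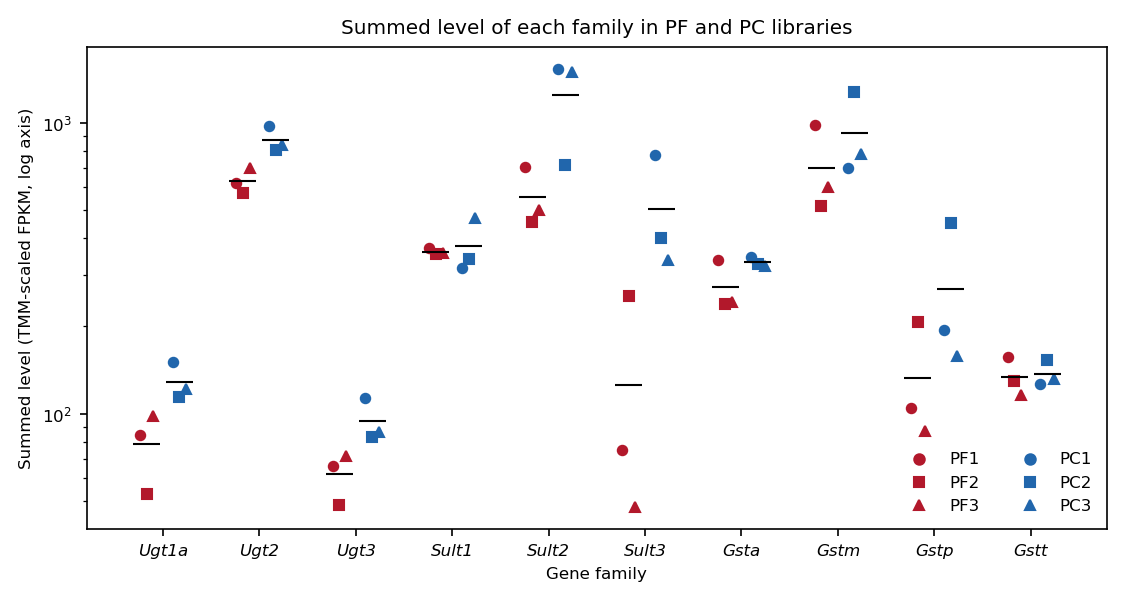
Summed level of the 10 families with 2 or more tested genes in TMM-scaled FPKM on a log axis, with PF libraries left of PC libraries in each family, a symbol per library and a short line at each group mean. The Sult3 sum lies between 47.7 and 254 FPKM in PF and between 338 and 777 FPKM in PC. On FPKM as deposited the mean Sult1, Gsta and Gstt sums are higher in PF, where here they are lower.

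In bulk liver RNA, fewer cells of a type and less RNA per cell cannot be told apart. All 13 listed hepatocyte markers were detected and tested, 11 of them with a log2 fold change below 0 (median −0.69), and with 1 gene higher in PF and 4 lower in PF by unadjusted p under 0.05. Their summed level, which holds Alb, was 94400, 207000 and 108000 CPM in PF1, PF2 and PF3, against 259000 to 317000 CPM in PC. Markers of hepatocyte zones did not share that pattern. Of 14 tested periportal markers, 10 lay above 0 and 4 below (median 0.317), with sums of 4290 to 7450 CPM in PF and 4090 to 6520 CPM in PC. Of 13 tested pericentral markers, 3 lay above 0 and 10 below (median −0.169), with sums of 5430 to 7630 CPM in PF and 6030 to 8160 CPM in PC. Summed markers of other liver cells overlapped between the groups, at 282 to 472 CPM in PF and 318 to 485 CPM in PC for Kupffer cells, 236 to 271 CPM in PF and 215 to 286 CPM in PC for sinusoidal endothelium, and 325 to 457 CPM in PF and 311 to 456 CPM in PC for stellate cells. Lymphocyte markers summed to 47.7, 11.8 and 11.2 CPM in PF, against 9.95, 15.6 and 6.07 CPM in PC, with PF1 high. Of the 10 lymphocyte markers 3 were tested, with a median log2 fold change of 1.08 and all 3 above 0. Erythroid markers summed to 127, 209 and 67.4 CPM in PF and 204, 244 and 55.6 CPM in PC. The list of 10 pancreas or intestine markers, 3 of them tested, summed to 104, 114 and 85.9 CPM in PF and 104, 226 and 89.1 CPM in PC, with PC2 high, and 4 of its genes (Prss1, Pnlip, Amy2a5 and Alpi) had 0 counts. Mitochondrially encoded genes made up 15.3%, 13.8% and 10.0% of PF1, PF2 and PF3, against 5.03%, 9.69% and 6.21% of PC1, PC2 and PC3, without overlap. The part of hepatocyte content, of other cells or of the mitochondrial share in the results was not tested.

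No conjugating gene passed edgeR's quasi-likelihood test at an adjusted p of 0.05 (lowest adjusted p = 0.12), and neither did any of the 10756 genes (0%). Taking an unadjusted p under 0.05, 7 of the 47 genes were higher in PF and 16 were lower. These shares, 14.9% and 34%, stand beside 9.13% higher and 7.9% lower among all tested genes. With DESeq2, 3 were past 5% and higher and 10 past 5% and lower, beside 1.98% and 2.62% of all genes. All 3 that were higher (Sult2a3, Sult2a5 and Sult2a7) were tested only because of their PF values, so that count is no result about the conjugating genes. Those 3 are also among the 7 above. Groups did not overlap for 3 genes that were higher and 18 that were lower in PF (6.38% and 38.3%), beside 11.8% and 11.1% of all genes. Among these, Sult2a3 was tested only through its PF values and Gstp2 only through its PC values. The filter thus partly built in the separation of those genes. The median log2 fold change of the 47 genes was −0.37, with 15 genes above 0 (beside 52.2% of all genes) and 32 below.

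The share of lower genes depended on the scaling. With library totals only, 10 of the 47 genes were higher (21.3%) and 6 lower (12.8%) at an unadjusted p under 0.05, beside 31.4% and 2.1% of all genes. The 6 lower genes were Sult1b1, Sult2a1, Sult2a8, Sult3a1, Sult3a2 and Ugt1a5, and all 6 were also among the 16 with TMM factors. The median of the conjugating genes lay 0.39 below that of all genes on the log2 scale with TMM factors and 0.36 below it with library totals, although its sign turned to 0.029. On FPKM as deposited, 5 of the 47 genes were higher and 7 lower in PF without overlap, beside 34.4% and 2.45% of all genes. Of the 18 lower genes without overlap with TMM factors, 7 were without overlap under both scalings. In 10 of the 47 genes the sign of the fold change differed between these scalings.

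**Figure D2:**
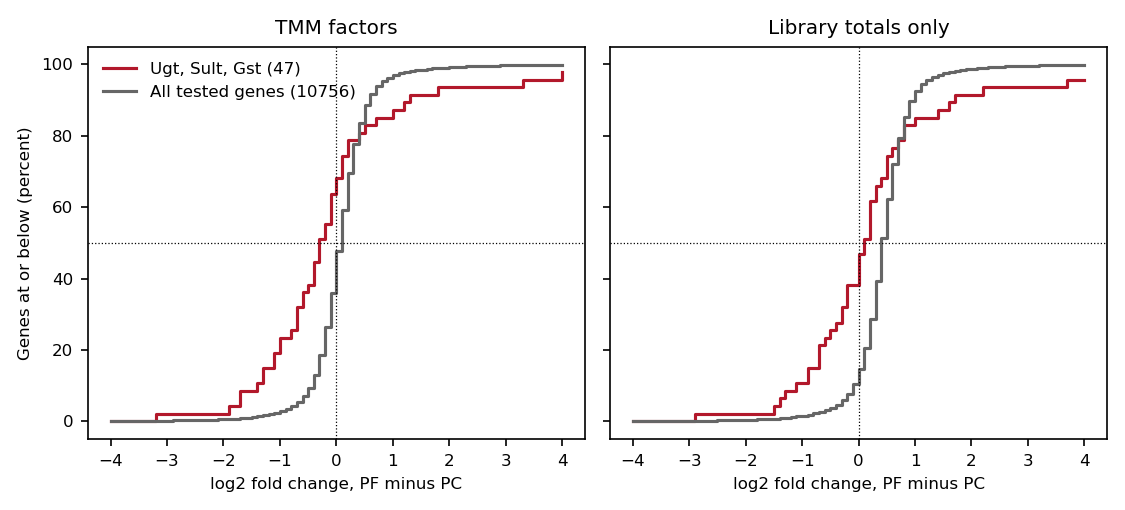
Cumulative share (percent) of genes at or below each log2 fold change, PF minus PC, in steps of 0.1 from −4 to 4, for the 47 conjugating genes (red) and all 10756 tested genes (grey), with TMM factors on the left and library totals on the right. With TMM factors the median log2 fold change is −0.37 for the conjugating genes and 0.0188 for all tested genes. With library totals these medians are 0.029 and 0.388.

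One library decided how many genes passed. Without PF2, edgeR called 403 of all genes at 5%, 1.19% higher and 2.56% lower in PF, and 11 of the 47 tested conjugating genes. The 5 that were higher were Sult1d1, Sult2a3, Sult2a5, Sult2a7 and Ugt1a6b. Of these, Sult2a3, Sult2a5 and Sult2a7 were tested only because of their PF values, which were high in PF1 and PF3. Their calls are therefore no result about the conjugating genes. Lower were Gstt3, Sult1b1, Sult3a1, Sult3a2, Sult4a1 and Ugt1a5. Leaving out any of the other 5 libraries gave 0 calls among the conjugating genes. PF2 was also the PF library with the most Alb, and for Sult1d1, Sult2a5, Sult2a7, Sult3a1 and Sult3a2 it lay nearer to PC than PF1 and PF3 did.

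**Figure D3:**
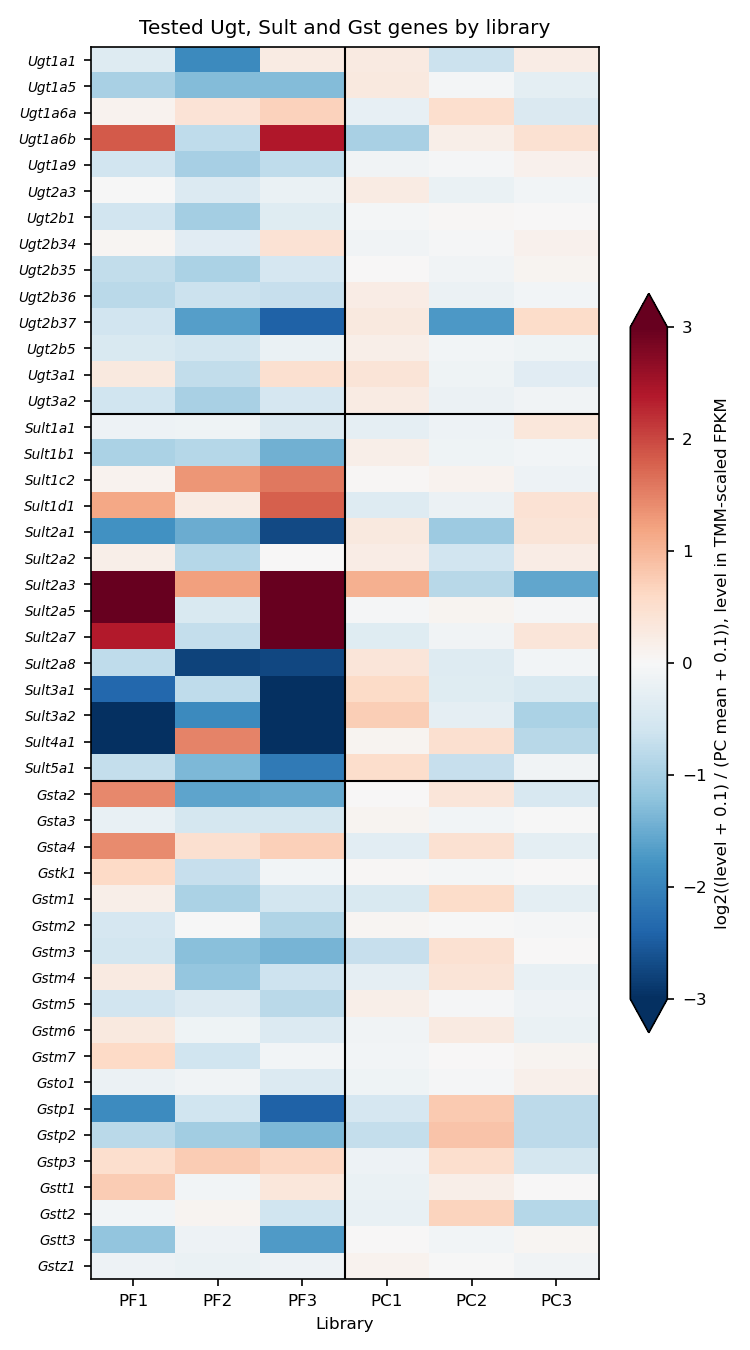
Level of each of the 47 tested genes (rows, grouped as Ugt, Sult and Gst) in the 6 libraries (columns, PF left of PC), as log2 of the level plus 0.1 over the PC mean plus 0.1, in TMM-scaled FPKM, with colours saturated at 3 in either direction. Rows of Sult2a3, Sult2a5 and Sult2a7 are red in PF1 and PF3, and those of Sult3a1, Sult3a2 and Sult4a1 are dark blue there, while PF2 differs less from PC or lies on the other side.

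Start-site sequences are shown for 3 pairs of genes around which the results turn. Ugt1a5 and Ugt1a9 are alternative first exons of 1 locus that were both lower in PF. Sult3a1 and Sult3a2 are neighbours that were both lower, and Sult2a3 and Sult2a5 are relatives that were both high in PF1 and PF3. Each window runs from 250 bases before to 50 bases after the annotated RefSeq start on GRCm38.p6, 5′ to 3′ on the gene's strand. Capitals mark GTTAAT or its reverse complement ATTAAC, one side of the palindrome bound by HNF1, a homeodomain factor of hepatocytes. Ugt1a5 is at chr1:88165762-88166061, plus strand, and Ugt1a9 at chr1:88070529-88070828, plus strand. Sult3a1 is at chr10:33857472-33857771, plus strand, and Sult3a2 at chr10:33782066-33782365, minus strand. Sult2a3 is at chr7:14122999-14123298, minus strand, and Sult2a5 at chr7:13623717-13624016, plus strand.
Ugt1a5: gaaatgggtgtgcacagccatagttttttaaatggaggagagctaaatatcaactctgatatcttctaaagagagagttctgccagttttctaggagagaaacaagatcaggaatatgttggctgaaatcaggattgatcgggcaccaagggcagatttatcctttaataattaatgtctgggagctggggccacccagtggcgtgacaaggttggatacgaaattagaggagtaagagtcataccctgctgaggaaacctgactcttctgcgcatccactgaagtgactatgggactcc
Ugt1a9: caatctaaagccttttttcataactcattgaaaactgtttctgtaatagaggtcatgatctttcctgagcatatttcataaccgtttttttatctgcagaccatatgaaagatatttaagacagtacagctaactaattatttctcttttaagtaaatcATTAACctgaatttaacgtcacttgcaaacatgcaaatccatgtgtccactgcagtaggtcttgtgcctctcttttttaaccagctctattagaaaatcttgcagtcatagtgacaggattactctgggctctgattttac
Sult3a1: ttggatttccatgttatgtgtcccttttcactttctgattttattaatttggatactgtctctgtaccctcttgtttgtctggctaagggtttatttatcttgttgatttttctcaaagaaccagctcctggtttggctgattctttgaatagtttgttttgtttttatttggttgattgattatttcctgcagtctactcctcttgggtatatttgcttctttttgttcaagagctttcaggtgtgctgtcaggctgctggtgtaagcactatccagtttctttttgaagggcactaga
Sult3a2: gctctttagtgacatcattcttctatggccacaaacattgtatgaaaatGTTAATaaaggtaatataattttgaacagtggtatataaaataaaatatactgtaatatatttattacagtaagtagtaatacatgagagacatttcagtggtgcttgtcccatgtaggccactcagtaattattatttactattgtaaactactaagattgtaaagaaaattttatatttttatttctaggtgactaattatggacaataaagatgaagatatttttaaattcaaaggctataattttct
Sult2a3: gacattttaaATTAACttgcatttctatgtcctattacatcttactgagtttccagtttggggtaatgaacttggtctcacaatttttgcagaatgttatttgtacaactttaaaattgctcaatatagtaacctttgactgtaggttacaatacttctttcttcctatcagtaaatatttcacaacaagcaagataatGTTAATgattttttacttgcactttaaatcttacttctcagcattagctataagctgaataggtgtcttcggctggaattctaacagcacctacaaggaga
Sult2a5: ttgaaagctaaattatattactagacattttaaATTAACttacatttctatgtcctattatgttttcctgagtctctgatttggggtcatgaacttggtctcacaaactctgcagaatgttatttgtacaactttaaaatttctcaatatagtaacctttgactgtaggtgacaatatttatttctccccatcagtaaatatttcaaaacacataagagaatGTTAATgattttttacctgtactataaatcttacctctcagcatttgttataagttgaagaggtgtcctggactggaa

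The Sult2a3 and Sult2a5 windows were 80.7% identical when aligned, and both hold the HNF1 hexamer 2 times, in the same order and orientation. Those sites begin 240 and 51 bases before the start in Sult2a3 and 217 and 28 bases before it in Sult2a5. The Sult3a1 and Sult3a2 windows were 50% identical, and of these Sult3a2 holds 1 hexamer. Identity between unrelated windows aligned with gaps was not computed, so nothing is read from that 50%. Ugt1a9 holds 1 hexamer 91 bases before its start and Ugt1a5 none. In all, RefSeq windows were matched for 56 of the 64 genes (67 windows), and 14 of them (20.9%) hold the hexamer on either strand, beside 7.1% of all 32851 windows. By superfamily these were 6 of 19 Ugt, 7 of 20 Sult and 1 of 28 Gst windows.

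Other motifs were searched on both strands in the same way, each counted separately where matches overlap. The antioxidant response element core TGACNNNGC, bound by NRF2, was in 3 member windows (4.48%, beside 12.4% of all), those of Gsta3, Gstm5 and Gstm7. The xenobiotic response element core GCGTG, bound by AHR with ARNT, was in 13 (19.4%, beside 32.4%). The STAT site TTCNNNGAA was in 4 (5.97%, beside 8.3%), namely Gsta1, Gstm6, Sult3a1 and Ugt1a6a, and the HNF4A form CAAAGTCCA was in 1 window of Sult1b1 (1.49%, beside 0.47%). The E-box CACGTG, pairs of which make up elements bound by ChREBP, was in 0 of the 67 windows, beside 7.15% of all. These matches describe letters in a short window and not binding.

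Among the Ugt1a genes, Ugt1a5 had the smallest p of all conjugating genes. Ugt1a5 (chromosome 1, 88093734 to 88146719 on GRCm39) was at 36.2, 28.4 and 28.6 FPKM in PF1, PF2 and PF3, against 86.4, 68.0 and 57.2 FPKM in PC1, PC2 and PC3. Every PF library lay below every PC library, with a log2 fold change of −1.18 ± 0.20 (SE, edgeR unadjusted p = 0.000521, adjusted p = 0.12). Ugt1a9, which in human conjugates phenols, was at 6.47, 4.79 and 5.65 FPKM in PF and 9.09, 9.40 and 10.6 FPKM in PC, a log2 fold change of −0.78 ± 0.16 (edgeR unadjusted p = 0.00142, adjusted p = 0.134). With TMM factors both groups were tight for Ugt1a9 and did not overlap. On FPKM as deposited they overlapped, and with library totals the log2 fold change was −0.40 (edgeR unadjusted p = 0.107).

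The other tested Ugt1a genes overlapped between the groups. Ugt1a1, the bilirubin glucuronosyltransferase, was at 29.9, 10.3 and 46.5 FPKM in PF and 47.1, 25.1 and 45.9 FPKM in PC, with PF2 the lowest and the groups overlapping. Ugt1a6a and Ugt1a6b, which take simple phenols, had positive log2 fold changes of 0.43 and 1.72 (edgeR unadjusted p = 0.159 and 0.0526). Ugt1a6b was at 4.95, 0.738 and 7.36 FPKM in PF and at 0.620 to 1.85 FPKM in PC, so that PF1 and PF3 were high and PF2 was not. Ugt1a10, below the level for testing, was at 0.200 to 0.454 FPKM in PF and 0.785 to 1.44 FPKM in PC, also without overlap, while Ugt1a2, Ugt1a7c and Ugt1a8 stayed at or under 0.211 FPKM in every library.

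All Ugt1a transcripts share their last exons and differ in the first, and 50.4% to 77.4% of the 100-base windows of these 9 genes recur in another gene. How reads in the shared exons were assigned is not given in the sources used here, so the Ugt1a levels are uncertain in size, and levels of different Ugt1a genes should be compared with that in mind. The proteins of Ugt1a6a and Ugt1a6b are 97.2% identical. The Ugt1a sum was 84.3, 52.9 and 98.3 FPKM in PF, against 150, 114 and 122 FPKM in PC.

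The Ugt2 genes, which glucuronidate steroids and bile acids among other substrates, form a cluster on chromosome 5 and were the larger part of the Ugt sum. Ugt2b36 (87213786 to 87240414 on GRCm39) was at 196, 220 and 211 FPKM in PF and 401, 304 and 321 FPKM in PC, a log2 fold change of −0.71 ± 0.20 (edgeR unadjusted p = 0.00757, adjusted p = 0.181). The PF values lay close together and under each PC value. Ugt2b35 was at 27.1, 23.3 and 31.6 FPKM in PF and 45.3, 42.0 and 47.8 FPKM in PC, a log2 fold change of −0.72 ± 0.17 (edgeR unadjusted p = 0.00309, adjusted p = 0.157). Ugt2b1 was at 45.1, 33.1 and 51.9 FPKM in PF and 64.8, 69.0 and 68.0 FPKM in PC (edgeR unadjusted p = 0.0132, adjusted p = 0.198). With library totals only, these 3 log2 fold changes shrank to −0.34, −0.33 and −0.24, and none had an unadjusted p under 0.05.

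Ugt2b5, the next most abundant, did not overlap between groups either, at 176 to 226 FPKM in PF and 238 to 294 FPKM in PC, but with an unadjusted p of 0.0775 by edgeR. On FPKM as deposited Ugt2b5 overlapped, and with library totals its log2 fold change was −0.0086 (edgeR unadjusted p = 0.973). Its protein is 96.4% identical to that of Ugt2b38, which stayed at or under 0.719 FPKM in every library. Ugt2b34 and Ugt2a3 overlapped between the groups, at log2 fold changes of 0.092 and −0.19, and the sign of the Ugt2a3 change turned with library totals. Ugt2b37 was at 2.95, 1.34 and 0.742 FPKM in PF and 5.43, 1.28 and 6.56 FPKM in PC, where PC2 fell among the PF values.

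Ugt3 enzymes use other sugar donors than UDP-glucuronate, as known for the human proteins. Ugt3a2 (chromosome 15, 9335636 to 9371041 on GRCm39) was at 56.9, 44.3 and 61.0 FPKM in PF and 103, 76.4 and 80.6 FPKM in PC. The groups did not overlap, and the log2 fold change was −0.68 ± 0.20 (edgeR unadjusted p = 0.0111, adjusted p = 0.192). On FPKM as deposited Ugt3a2 overlapped between the groups, and with library totals its log2 fold change was −0.29 (edgeR unadjusted p = 0.289). Its neighbour Ugt3a1, 87.2% identical in protein, was at 9.17, 4.38 and 10.5 FPKM in PF and 9.72, 6.74 and 5.81 FPKM in PC, with the groups overlapping. By unadjusted p under 0.05, 0 of the 14 tested Ugt genes were higher and 6 lower (42.9%, beside 7.9% of all genes). DESeq2 put 5 of the 14 past 5%, all lower (Ugt1a5, Ugt1a9, Ugt2b35, Ugt2b36 and Ugt3a2), beside 2.62% of all genes.

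**Figure D4:**
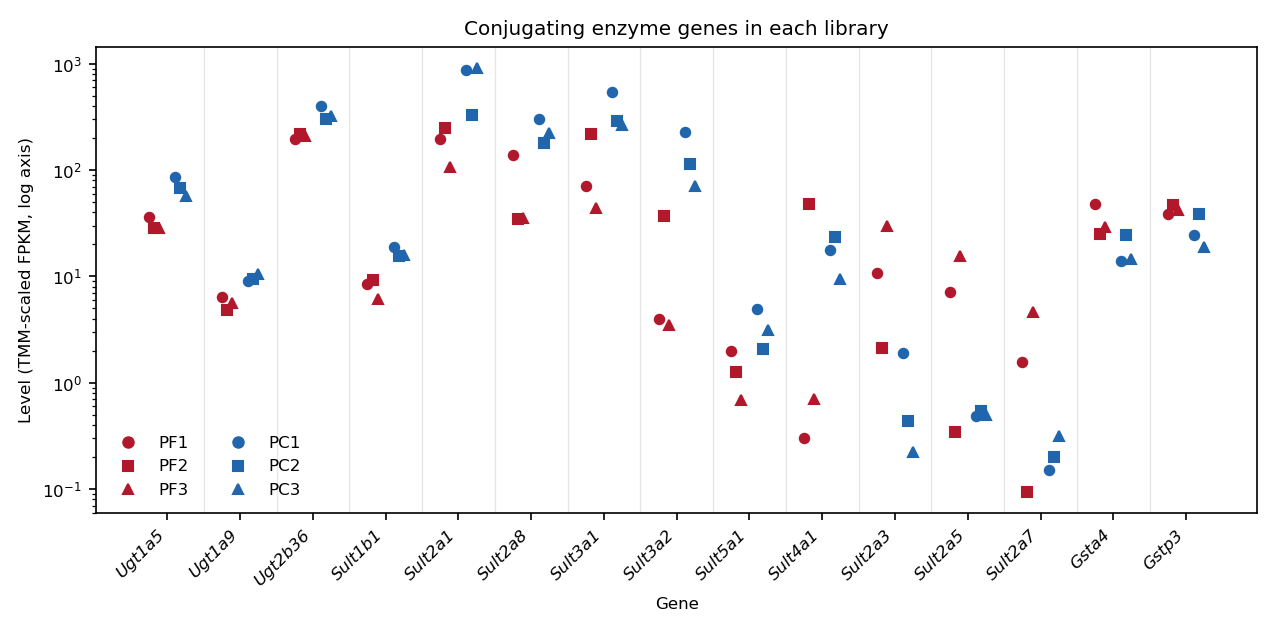
Level in TMM-scaled FPKM on a log axis of 15 conjugating genes, PF libraries (red) left of PC libraries (blue) for each gene, with circles, squares and triangles for replicates 1, 2 and 3. Sult2a1 lies at 108 to 251 FPKM in PF and 327 to 908 FPKM in PC. Sult4a1 spans 0.301 to 47.8 FPKM within PF, and Sult2a3, Sult2a5 and Sult2a7 are high in PF1 and PF3.

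Sulfotransferase genes had log2 fold changes in both directions. Sult3a1 and Sult3a2 (chromosome 10, 33733717 to 33755528 and 33642420 to 33662700 on GRCm39) are arranged on opposite strands, and the mouse Sult3a1 enzyme is known to sulfonate amines. Sult3a2 was at 3.96, 36.9 and 3.48 FPKM in PF1, PF2 and PF3, against 230, 115 and 71.3 FPKM in PC1, PC2 and PC3. PF1 and PF3 lay far below PF2, and PF2 below each PC library. The log2 fold change was −3.24 ± 0.97 (edgeR unadjusted p = 0.0113, adjusted p = 0.194). It was −5.23 ± 0.58 without PF2 (edgeR adjusted p = 0.00772), and over 17 alternatives its adjusted p ran from 0.00124 to 0.543.

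Sult3a1 differed in the same direction, at 71.3, 218 and 44.3 FPKM in PF and 547, 287 and 267 FPKM in PC. Its log2 fold change was −1.72 ± 0.60 (edgeR unadjusted p = 0.0219, adjusted p = 0.223). Sult3a2 made up 5.26%, 14.5% and 7.28% of the pair's summed level in PF and 29.6%, 28.6% and 21.1% in PC, without overlap. The proteins are 84% identical, and no 100-base stretch of either transcript recurs in another gene.

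The Sult2a genes, hydroxysteroid and bile acid sulfotransferases, lie in 1 cluster on chromosome 7 and went both ways. Sult2a1 (13530171 to 13571334 on GRCm39), whose enzyme sulfonates dehydroepiandrosterone and bile acids, was at 198, 251 and 108 FPKM in PF and 864, 327 and 908 FPKM in PC. PC2 was the lowest PC library, yet above each PF library, and the log2 fold change was −1.92 ± 0.46 (edgeR unadjusted p = 0.00364, adjusted p = 0.159). Sult2a8, known as a bile acid sulfotransferase of mouse liver, was at 140, 34.5 and 35.2 FPKM in PF and 303, 181 and 224 FPKM in PC, a log2 fold change of −1.76 ± 0.57 (edgeR unadjusted p = 0.0168, adjusted p = 0.212). Here PF1 was the high PF library and PF2 lay with PF3, unlike in Sult3a2. On FPKM as deposited the Sult2a8 groups overlapped, and with library totals its log2 fold change was −1.32 (edgeR unadjusted p = 0.048).

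Sult2a2, by contrast, was at 349, 169 and 308 FPKM in PF and 360, 207 and 357 FPKM in PC, where the second library of each group was the low one. Its log2 fold change was −0.16 ± 0.33, and the sign turned with library totals. Sult2a2 therefore made up 49.4%, 37.0% and 61.4% of the Sult2 sum in PF, against 23.5%, 28.9% and 24.0% in PC. The annotated Sult2a2 protein is short, at 194 residues against 285 in Sult2a1, and over that shorter length the 2 are 95.4% identical. Exonic lengths were 741 bases for Sult2a2 and 1020 for Sult2a1, so these shares depend on the gene models. In addition, 34.6% of the 100-base windows of Sult2a2 recur in Sult2a5, Sult2a1 or Sult2a4, so their counts are uncertain where reads could be split.

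A further 3 Sult2a genes were low in PC and higher in PF1 and PF3. Sult2a3 (13801371 to 13856969 on GRCm39) was at 10.8, 2.14 and 29.6 FPKM in PF and 1.89, 0.437 and 0.225 FPKM in PC, a log2 fold change of 4.07 ± 1.06 (edgeR unadjusted p = 0.0055, adjusted p = 0.176). The groups did not overlap, although PF2 lay just above PC1. That log2 fold change was 2.94 without PF3, 5.41 without PC1 and 4.58 without PF2, and in the fit without PF2 it passed 5% (edgeR adjusted p = 0.0241). Sult2a5 was at 7.13, 0.348 and 15.6 FPKM in PF and 0.491, 0.547 and 0.492 FPKM in PC, so PF2 was below all PC libraries. Sult2a7 showed the same order, at 1.58, 0.0948 and 4.62 FPKM in PF and 0.151 to 0.314 FPKM in PC. Log2 fold changes were 3.91 ± 1.11 for Sult2a5 and 3.22 ± 1.11 for Sult2a7 with all libraries, and 4.46 and 3.76 without PF2. These genes passed the expression filter only through PF, so a difference in them was built into their being tested.

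No 100-base stretch of the Sult2a3 or Sult2a7 transcripts recurs in another gene, while 16.6% of those of Sult2a5 do. Sult2a4 and Sult2a6 stayed at or under 0.619 FPKM in every library. Sult2b1, a cholesterol sulfotransferase of skin, stayed at or under 0.0325 FPKM.

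In the Sult1 family, Sult1b1, which sulfonates thyroid hormone and small phenols, had the second smallest p of the conjugating genes. Sult1b1 (chromosome 5, 87661198 to 87686054 on GRCm39) was at 8.57, 9.20 and 6.12 FPKM in PF and 19.1, 15.4 and 15.8 FPKM in PC. The groups were clearly apart, with a log2 fold change of −1.07 ± 0.19 (edgeR unadjusted p = 0.000615, adjusted p = 0.12). Its neighbour in the same cluster, Sult1d1, a catecholamine sulfotransferase in mouse, was at 62.4, 33.4 and 97.9 FPKM in PF and 21.5, 25.0 and 37.6 FPKM in PC. PF2 lay below PC3 there, and the log2 fold change was 1.20 ± 0.40 (edgeR unadjusted p = 0.0173, adjusted p = 0.213). Sult1c2 was at 4.07, 9.59 and 11.6 FPKM in PF and 3.86, 4.10 and 3.41 FPKM in PC, a log2 fold change of 1.15 ± 0.36 (edgeR unadjusted p = 0.0137, adjusted p = 0.2), with PF1 at the PC level.

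Sult1a1, the phenol sulfotransferase and most abundant Sult1 gene, overlapped between the groups at 295, 301 and 240 FPKM in PF and 272, 296 and 412 FPKM in PC. Its log2 fold change was −0.23 ± 0.22, and 0.13 with library totals. Sult1e1, the oestrogen sulfotransferase, was at 1.32 FPKM in PF3 and at or under 0.599 FPKM elsewhere.

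Sult4a1 had the widest spread within a group. Sult4a1 (chromosome 15, 83960298 to 83989955 on GRCm39), best known from brain and without a settled substrate, was at 0.301, 47.8 and 0.709 FPKM in PF1, PF2 and PF3, against 17.9, 23.6 and 9.43 FPKM in PC1, PC2 and PC3. PF2 was the highest of all 6 libraries and PF1 and PF3 the lowest. The log2 fold change with all libraries was −0.065 ± 1.47 (edgeR adjusted p = 0.99). It was −5.06 ± 0.55 without PF2 (edgeR adjusted p = 0.00718), and over 17 alternatives its adjusted p ran from 0.00718 to 0.999. Sult5a1 was at 2.01, 1.26 and 0.689 FPKM in PF and 4.88, 2.06 and 3.13 FPKM in PC, with PF1 just under PC2 (log2 fold change −1.35 ± 0.44, edgeR unadjusted p = 0.0164, adjusted p = 0.212). On FPKM as deposited Sult5a1 overlapped between the groups, and with library totals its log2 fold change was −0.96 (edgeR unadjusted p = 0.0511). Sult6b1 stayed at or under 0.261 FPKM.

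By unadjusted p under 0.05, 5 of the 14 tested Sult genes were higher and 6 lower (35.7% and 42.9%, beside 9.13% and 7.9% of all genes). DESeq2 put 3 of the 14 higher and 5 lower past 5%, beside 1.98% and 2.62% of all genes. The 3 higher by DESeq2, Sult2a3, Sult2a5 and Sult2a7, are also among the 5 and were tested only through their PF values. The 5 lower were Sult1b1, Sult2a1, Sult2a8, Sult3a1 and Sult5a1.

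Among glutathione transferases, 2 of 19 tested genes were higher and 4 lower by unadjusted p under 0.05 (10.5% and 21.1%, beside 9.13% and 7.9% of all genes). EdgeR and DESeq2 each put 0 past 5%. Gsta4 (chromosome 9, 78090056 to 78116631 on GRCm39), which conjugates the lipid peroxidation product 4-hydroxynonenal, was at 47.8, 24.8 and 29.0 FPKM in PF and 14.1, 24.5 and 14.5 FPKM in PC. PF2 stood barely above PC2, and the log2 fold change was 0.94 ± 0.31 (edgeR unadjusted p = 0.0186, adjusted p = 0.216). Gsta3, the most abundant alpha gene, which detoxifies aflatoxin epoxide in mouse, was at 259, 209 and 209 FPKM in PF and 320, 287 and 300 FPKM in PC. These values did not overlap, with a log2 fold change of −0.42 ± 0.21 (edgeR unadjusted p = 0.0842), and with library totals the log2 fold change was −0.042.

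Gsta2 was at 28.0 FPKM in PF1 but 3.35 and 3.46 FPKM in PF2 and PF3, against 7.29 to 13.2 FPKM in PC, so the PF libraries lay on both sides of PC. Its close copy Gsta1 followed at 2.90, 0.127 and 0.147 FPKM in PF and 0.0672 to 0.864 FPKM in PC. Their proteins are 95.5% identical and 80.6% of the Gsta1 windows recur in other genes, so counts of this pair are uncertain.

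The pi class differed in its make-up between the groups. Gstp1 (chromosome 19, 4085407 to 4087985 on GRCm39), the main pi enzyme of mouse liver, was at 65.0, 159 and 44.6 FPKM in PF and 168, 411 and 138 FPKM in PC. The second library of each group was the high one, and PF2 lay above PC3, so that the groups overlapped (log2 fold change −1.42 ± 0.57, edgeR unadjusted p = 0.0407, adjusted p = 0.273). Without PC2 that log2 fold change was −0.78 and without PF2 it was −2.13. Gstp3, in the same cluster, was at 38.8, 46.9 and 42.0 FPKM in PF and 24.7, 38.6 and 18.9 FPKM in PC, without overlap, although PF1 was barely above PC2 (log2 fold change 0.64 ± 0.26, edgeR unadjusted p = 0.0406, adjusted p = 0.272). Gstp3 therefore made up 37.1%, 22.7% and 48.2% of the pi sum in PF, against 12.7%, 8.54% and 12.0% in PC.

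Gstp2 was low, at 0.905, 0.762 and 0.589 FPKM in PF and 0.981, 3.08 and 0.926 FPKM in PC, and PC2 alone stood apart. Its protein is 97.1% identical to Gstp1, and 46.9% of its windows recur in Gstp1 or the pseudogene Gstp-ps. That pseudogene had 194, 472 and 130 counts in PF and 461, 1185 and 383 counts in PC, and as in Gstp1 the second library of each group was the highest.

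**Figure D5:**
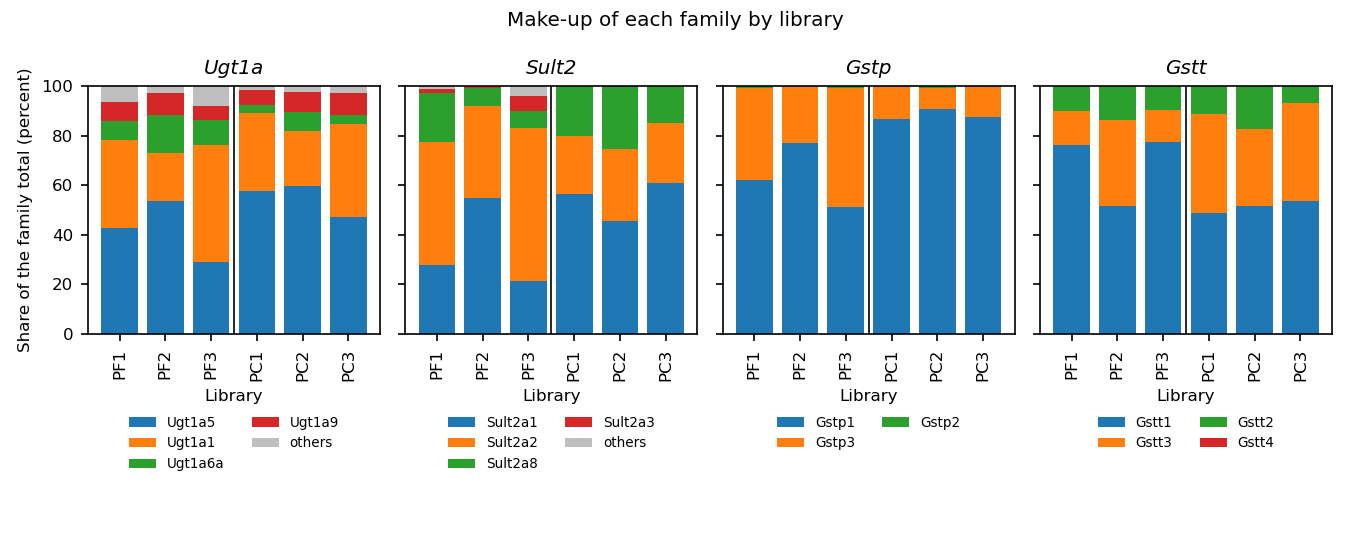
Share (percent) of the summed TMM-scaled FPKM of the Ugt1a, Sult2, Gstp and Gstt families taken by each gene in each library, PF left of PC, with genes beyond the 4 most abundant pooled as others. Gstp3 takes 22.7% to 48.2% of the pi sum in PF and 8.54% to 12.7% in PC, and Sult2a2 takes 37.0% to 61.4% of the Sult2 sum in PF and 23.5% to 28.9% in PC. Shares within a library do not depend on the scaling between libraries.

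In the theta class, the groups overlapped for Gstt1, which acts on small halogenated compounds, and did not for Gstt3. Gstt1 was at 120, 66.7 and 89.6 FPKM in PF and 61.8, 79.2 and 70.7 FPKM in PC (log2 fold change 0.38 ± 0.23, edgeR unadjusted p = 0.145). Gstt3 was at 21.7, 44.8 and 15.3 FPKM in PF and 50.1, 47.2 and 51.5 FPKM in PC, with PF2 just under PC2 (log2 fold change −0.86 ± 0.37, edgeR unadjusted p = 0.0493, adjusted p = 0.292). Without PF2 the Gstt3 log2 fold change was −1.43 ± 0.20. With library totals and all libraries it was −0.56 (edgeR unadjusted p = 0.103), and Gstt3 overlapped between the groups on FPKM as deposited. Gstt1 made up 76.1%, 51.7% and 77.3% of the theta sum in PF and 48.9%, 51.8% and 53.8% in PC, so PF2 lay with PC.

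Among the mu genes, Gstm1, the most abundant conjugating gene of all, was at 770, 353 and 466 FPKM in PF and 499, 1000 and 556 FPKM in PC. PC2 was highest and PF2 lowest, the groups overlapped, and the log2 fold change of −0.37 ± 0.39 turned to 0.024 with library totals. Gstm3 was at 52.9, 32.5 and 29.5 FPKM in PF and 47.6, 107 and 77.8 FPKM in PC, with PF1 above PC1 (log2 fold change −1.01 ± 0.34, edgeR unadjusted p = 0.0186). Gstm5 did not overlap, at 5.68, 6.40 and 4.77 FPKM in PF and 9.60, 8.26 and 7.57 FPKM in PC (log2 fold change −0.59 ± 0.19, edgeR unadjusted p = 0.0136). On FPKM as deposited Gstm5 overlapped between the groups. With library totals the Gstm3 and Gstm5 log2 fold changes were −0.64 and −0.23 (edgeR unadjusted p = 0.118 and 0.279). Gstm5 overlaps 4933431E20Rik on the other strand, which held 71.0% as many counts, and without the strand setting their reads cannot be separated. Gstm2, Gstm4, Gstm6 and Gstm7 had unadjusted p of 0.105 to 0.826 by edgeR.

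The single members of smaller classes differed little. Gstz1, the maleylacetoacetate isomerase of tyrosine breakdown, was at 113, 110 and 113 FPKM in PF and 135, 125 and 116 FPKM in PC, without overlap but with a log2 fold change of only −0.17 ± 0.18, which was 0.21 with library totals. Gsto1, a glutathione-dependent reductase, was at 31.0, 32.3 and 26.4 FPKM in PF and 32.0, 34.1 and 39.0 FPKM in PC (log2 fold change −0.23 ± 0.15, and 0.14 with library totals). Gstk1, the kappa enzyme of mitochondria and peroxisomes, was at 53.9, 22.2 and 33.7 FPKM in PF and 34.1 to 36.5 FPKM in PC, so PF libraries lay on both sides of PC. Gsto2 and Gstt4 stayed at or under 0.150 FPKM in every library.

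Genes that work beside the conjugating enzymes showed no common direction. The 83 tested genes supply cofactors, conjugate by other means, export conjugates or belong to conjugate hydrolysis and the mercapturate pathway. Others among them regulate these enzymes or belong to the NRF2 antioxidant response. Of the 83, 10 were higher and 10 were lower by unadjusted p under 0.05. That is 20 genes beside 17% of all tested genes in either direction, with a median log2 fold change of −0.03. The counts for each list below use the same unadjusted p, which 9.13% of all genes met as higher and 7.9% as lower, and with so few genes per list nothing is read from them. By edgeR 0 passed 5% (lowest adjusted p = 0.132), and by DESeq2 4 were higher and 3 lower, beside 1.98% and 2.62% of all genes.

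Of 15 tested genes of cofactor supply, 0 were higher and 1 was lower at an unadjusted p under 0.05. That gene was Bpnt1, which removes the spent sulfonate donor, at 18.3, 13.2 and 17.8 FPKM in PF and 24.9, 18.7 and 25.4 FPKM in PC (log2 fold change −0.48 ± 0.19, edgeR unadjusted p = 0.0378). Slc35d1, which carries UDP-glucuronate into the endoplasmic reticulum, and Gsr, the glutathione reductase, had log2 fold changes of −0.36 and −0.38, each with overlap.

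Among the 9 tested genes of conjugate hydrolysis and the mercapturate pathway, Ggt6 and Arsa were higher and Gusb lower at that unadjusted p. Gusb, the beta-glucuronidase that removes glucuronic acid, was at 3.46, 6.70 and 4.34 FPKM in PF and 11.8, 7.62 and 10.9 FPKM in PC (log2 fold change −1.06 ± 0.28, edgeR unadjusted p = 0.00557, adjusted p = 0.176). Ggt6, a member of the gamma-glutamyltransferase family, was at 12.2, 8.87 and 13.2 FPKM in PF and 1.09, 4.93 and 2.87 FPKM in PC (log2 fold change 1.95 ± 0.46, edgeR unadjusted p = 0.00333, adjusted p = 0.159). Neither overlapped between groups. Arsa, the lysosomal arylsulfatase A, had a log2 fold change of 0.64 ± 0.25.

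Of 17 other conjugating enzymes, 1 was higher and 2 lower at an unadjusted p under 0.05. Glyat, which joins glycine to acyl-CoA, and As3mt, the arsenite methyltransferase, had log2 fold changes of −0.53 ± 0.17 and −0.55 ± 0.18, without overlap.

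Of 12 transporters, 8 had a log2 fold change above 0, and 3 were higher and 3 lower at an unadjusted p under 0.05. Slco1a1, an uptake transporter of bile acids and steroid conjugates, was at 1.76, 9.04 and 0.568 FPKM in PF and 22.1, 22.6 and 20.5 FPKM in PC, again with PF2 the highest PF library (log2 fold change −2.52 ± 0.85, edgeR unadjusted p = 0.0196, adjusted p = 0.217). The exporters Abcc6 and Abcb1a had log2 fold changes of 0.49 ± 0.15 and 1.16 ± 0.34, without overlap.

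Of 20 regulators, 2 were higher and 1 lower at an unadjusted p under 0.05. Arnt, the partner of AHR, was at 5.27, 5.15 and 5.71 FPKM in PF and 3.69, 3.99 and 3.87 FPKM in PC, and Ahr was at 6.97, 7.29 and 6.63 FPKM in PF and 9.82, 8.27 and 10.0 FPKM in PC. Their log2 fold changes were 0.48 ± 0.12 and −0.43 ± 0.14, with both groups tight (edgeR unadjusted p = 0.00524 and 0.0168, adjusted p = 0.174 and 0.212).

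Of 13 tested genes of the NRF2 list, 2 were higher and 2 lower at an unadjusted p under 0.05. Osgin1, a stress-induced gene, was at 24.3, 27.4 and 24.1 FPKM in PF and 54.0, 59.3 and 116 FPKM in PC (log2 fold change −1.60 ± 0.31, edgeR unadjusted p = 0.000966, adjusted p = 0.132). Me1 and G6pdx, which make NADPH and also serve lipogenesis, had log2 fold changes of 1.85 ± 0.44 and 1.88 ± 0.48, without overlap. G6pdx overlaps the more highly counted Ikbkg on the other strand, so its counts are uncertain. Nqo1, a defining gene of that response named here after its values were seen, was at 10.1, 3.59 and 4.86 FPKM in PF and 6.20, 10.3 and 7.04 FPKM in PC, with overlap.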

How the data were processed

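Livers of pregnant mice on HFrD (PF) or NC (PC) gave 3 libraries each, grouped by title and treatment in the labels. Whether libraries share a litter, day or batch is not stated, so the p-values cover only the spread among these samples. Per gene, the authors deposited whole-number counts without normalisation, and the FPKM values deposited by the authors are those counts per exonic kilobase, scaled to the library total. The submitters' processing notes list HISAT2 2.2.1, HTSeq 0.6.1, cutadapt 1.9.1 and DESeq2, and coordinates are on GRCm39. Neither the strand setting nor the annotation release is given in the sources used here.

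Genes averaging at least 1 FPKM (10756) were tested with edgeR 4.0.16 (R 4.3.3), quasi-likelihood, TMM factors, PF minus PC, two-sided, Benjamini-Hochberg over all of them, at 0.05. Standard errors are the log2 fold change over the root of F. An exact permutation test of 3 against 3 cannot go below p = 0.1 and was not run. DESeq2 1.42.0, limma 3.58.1, other scalings, filters and left-out libraries were alternatives. On simulated counts edgeR recovered 3.51%, 16.4% and 82.9% of genes changed 1.5-, 2- and 4-fold. Totals ran from 16119145 to 19676361 counts, and the precision rests on 3 libraries per group and the spread among them.

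Symbols came from a GRCm38 name table (52073 of 56691 genes). Shared 100-base windows and protein identity were computed from GENCODE transcripts, and promoters are RefSeq windows. Of 219 genes in the partner and marker lists, 217 were matched. Members and lists were chosen with earlier results of these data known. Given in full were up to 8 genes per direction with the smallest p and no overlap, the most abundant tested gene of each family, genes set apart by 1 library, and the 3 partners with the smallest p per list. Some genes that this rule would name are not reported here. The others described were chosen after their values were seen.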

Additional observations from a re-analysis of the deposited data

How the results depend on the processing

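Of 23 conjugating genes described by rule, 17 kept their sign in every alternative that tested them (15 alternatives for Gstp2, 16 for Sult2a3 and Sult5a1 and 17 for the others). The count of all genes past 5%, 0 by edgeR, was 495 with DESeq2, 4 and 2 with limma on log2(FPKM + 1) and log2(FPKM + 0.1), 180 with library totals, 555 without the filter, 0 to 403 with 1 library left out, and 511 without PF2 and PC2, a setting chosen after seeing the data. The members past 5%, 0 by edgeR, numbered 13, 16 and 9 with DESeq2, without the filter and without PF2 and PC2, and 0 to 11 with 1 library left out. At an unadjusted p under 0.05, 3 to 8 members were higher and 13 to 18 lower with 1 library left out, with 3 higher without PF3 or PC1. The lower members numbered 6 with either limma fit and with library totals. With a mean of at least 1 FPKM required in each group, also chosen after seeing the data, 5 were higher and 15 lower of 43. Partners at that p, 20 of 83, numbered 31 without the filter, 36 without PF2 and PC2 and 14 to 29 with 1 library left out. The Ugt, Sult and Gst log2 ratios of sums on FPKM as deposited were −0.1226, −0.6447 and −0.008594.

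The sign turned for genes with small log2 fold changes. Gstk1 was −0.05213 with the replicate block and −0.3489 to 0.29 with 1 library left out (−0.3489 without PF1). Gstm1 was 0.0241 with library totals, −0.7426 to 0.004801 with 1 library left out (0.004801 without PC2) and 0.2142 without PF2 and PC2. With limma at 1, limma at 0.1 and library totals, Gsto1 was 0.1329, 0.1367 and 0.1356, Gstz1 0.197, 0.1984 and 0.2055, and Sult1a1 0.1503, 0.1508 and 0.1316. Sult4a1 was 0.1016 with library totals, 0.00641 with a mean of at least 5 FPKM, and −5.057 to 0.5126 with 1 library left out (0.5126, 0.5012 and 0.2472 without PF1, PF3 and PC2). The cause was not tested. Whether replicate numbers pair the samples is not stated. Correlations of deviations between libraries of the same number were −0.174, 0.275 and 0.107, which cannot settle it with 3 libraries per group. With the number as a block 7 members were higher and 16 lower at an unadjusted p under 0.05, beside 9.99% and 8.97% of all genes. In that fit 0 members passed 5%, and 23 partners had an unadjusted p under 0.05. At this depth and n, edgeR found 16.4% of simulated 2-fold changes, so a missing call says little about changes of that size.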
